A study of Rattus norvegicus with 6 samples.

Results

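The nuclear genes that encode subunits of the mitochondrial respiratory chain were measured in the renal cortex of rats given dipropylene glycol or water. Members were taken by name: every gene symbol of the Nduf, Sdh, Uqcr, Cyc1, Cox4 to Cox8 and Atp5 families that the accession of an array probe matched. This gave 76 genes of the 15645 that the array's probes matched, with 133 probes: 31 genes of complex I, 4 of complex II, 8 of complex III, 17 of complex IV and 16 of complex V. The study used male Sprague-Dawley rats bought at 5 weeks of age. A control group of 3 rats received water, and 3 rats received dipropylene glycol (DPG), a glycol used as a solvent, at 1000 mg/kg/day, each group for 4 weeks. All rats ate the same basal diet. Total RNA of each animal's renal cortex, the outer zone of the kidney, was labelled with Cy3 and hybridised to 1 one-colour Agilent array. The design text calls the 3 animals of a group biological replicates.

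The respiratory chain sits in the inner mitochondrial membrane. Complexes I and II pass electrons from NADH and succinate to coenzyme Q, complex III passes them on to cytochrome c, and complex IV passes them to oxygen. Complexes I, III and IV pump protons out of the matrix, and complex V, the ATP synthase, uses their return to make ATP. Most subunits are encoded in the nucleus, and a small set in mitochondrial DNA. Proximal tubule cells, which make up much of the cortex, depend on this chain to power the reabsorption of filtered sodium and solutes, so its transcripts are abundant there.

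Values below are log2 signals on a scale where the 75th percentile of each array is 0, and a difference is the DPG mean minus the control mean on that scale. Between 39556 and 43184 probes per array were well above background, and the correlation between arrays ran from 0.989 to 0.994. Control 3 had the fewest such probes and 34 spots with outlier flags, against 0 to 4 on the others. The 3 controls shared 1 slide and scan and the 3 DPG samples another, so slide and treatment cannot be told apart. Of the 76 genes, 75 could be tested, and the probe that stood for each was well above background on all 6 arrays. The remaining gene, the testis isoform Cox8c, had 2 probes that missed that filter. Another 35 protein-coding symbols of these families matched no probe here and were not analysed, among them Cyc1 (cytochrome c1), Cox7a1, Cox7b2, Ndufa4l2 and Atp5mc3. Subunits encoded in mitochondrial DNA were not analysed here either.

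The 75 transcripts differed little between the groups. Differences ran from -0.22 for Cox7c to 0.15 for Ndufb7, 39 lay above 0 and 36 below, and the median was 0.0082, beside 0.0035 over all 29647 features tested. With limma, 0 of the 75 passed an adjusted p of 0.05 (Benjamini-Hochberg over all features), as did 0% of all features, whose smallest adjusted p was 0.125. At an unadjusted p under 0.05, 1 of the 75 was called (1.33%), beside 12.4% of all features. That gene was Ndufb7, on the higher side, where 6.68% of all features lay, and 0 genes were called on the lower side, where 5.7% of all features lay. The share of members called depended on the processing. It was 9.33% against 12.9% of all features with an intensity trend and robust variance. With normexp background correction it was 10.7% against 15.2%, and with quantile normalization 0% against 12.2%. For 15 of the 75 genes (20%) the highest array of one group lay below the lowest of the other, beside 19.7% of all features, a share close to the background. Of these, 11 were higher in DPG (14.7%, against 10.7% of all features) and 4 lower (5.33%, against 8.96%).

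The fit also bounded the size of the differences. All 75 estimates lay within 1.2-fold of equal, as did 80% of all features, and 68 (90.7%) lay within 1.1-fold, beside 56.7% of all features. The 95% interval of the difference lay wholly inside 1.2-fold in either direction for 46 genes (61.3%), against 20.5% of all features. It lay inside 1.5-fold for 72 genes (96%), against 71.8%. The widest intervals reported here, those of Cox6a2 and Cox8b, passed that bound. The median spread between animals of a group was a pooled SD of 0.056 for these genes and 0.14 for all features, and the median size of the difference was 0.061 against 0.11. For most subunits, then, a change of 1.5-fold or more lay outside the interval. With this variance model and 3 animals a group, 0 intervals lay inside 1.1-fold, and that of Ndufb7 alone lay clear of equal. An intensity trend with robust variance called a larger share of members at an unadjusted limma p under 0.05, as given above. Apart from Cox6a2, Cox8b and Uqcrq, the control means of these genes lay above the array's 75th percentile. The shares over all features were not matched for signal level, and its part in these contrasts was not tested.

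**Figure D1:**
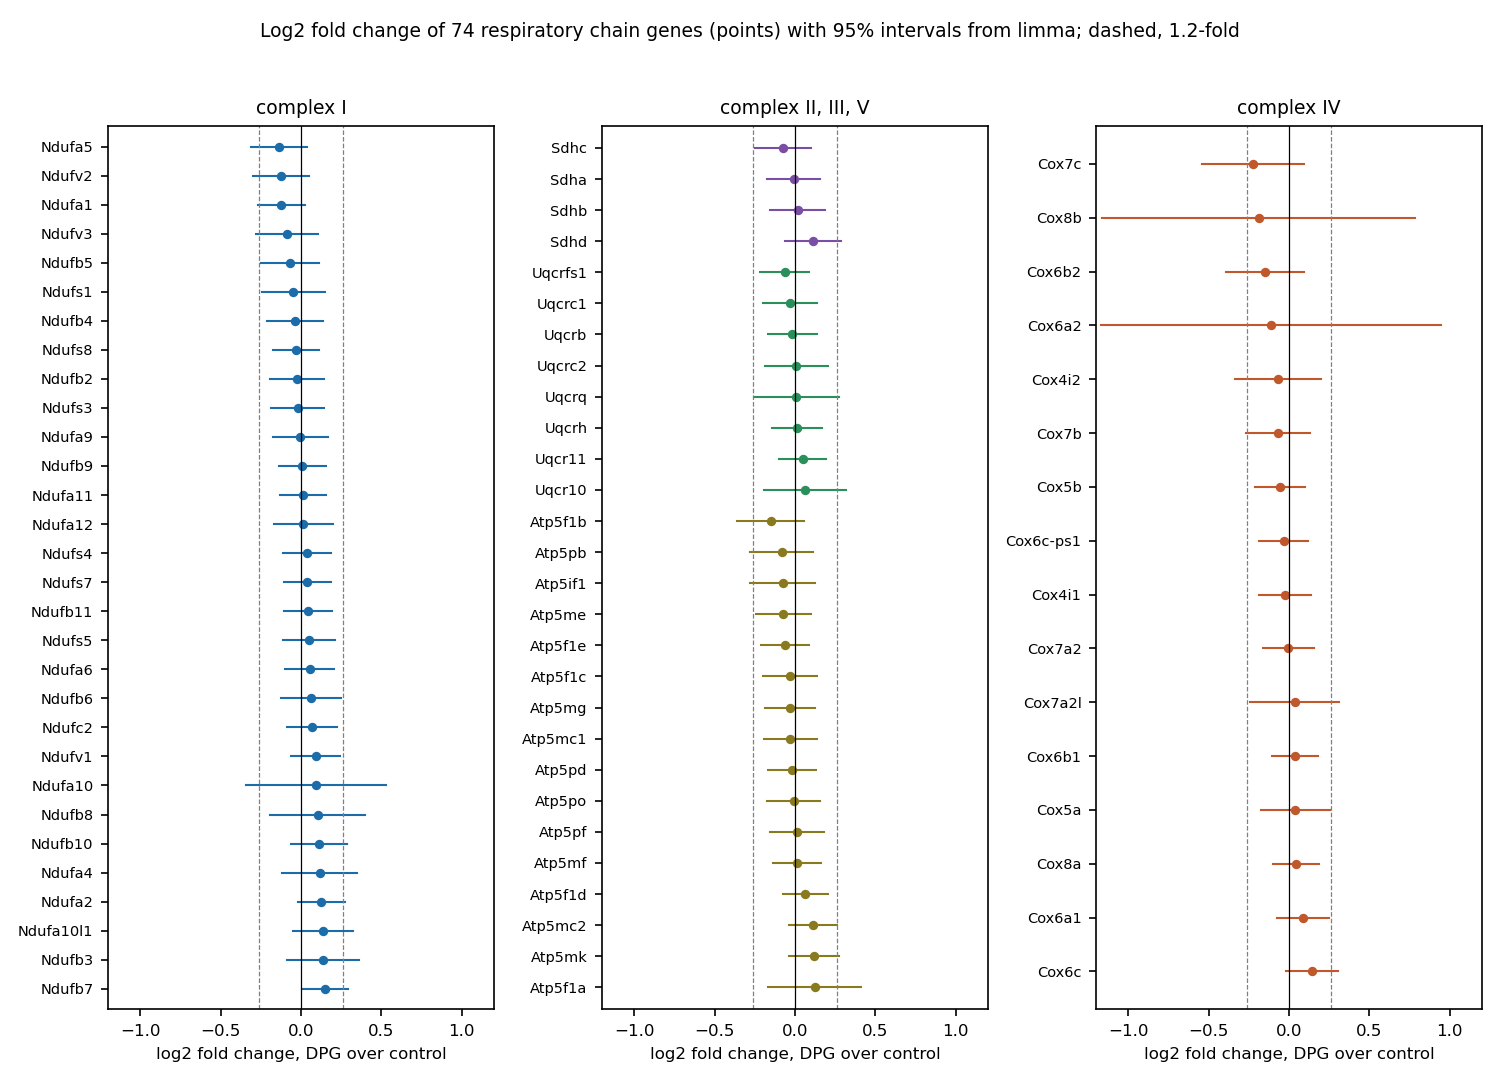
Difference between DPG and control for 74 of the 75 tested genes, by complex: points are log2 fold changes on the x axis, bars are 95% intervals from limma (3 arrays a group), and dashed lines mark 1.2-fold. The intervals of 46 genes stay between the dashed lines. Ndufb7 alone lies clear of 0, and the bars of Cox8b and Cox6a2 are the widest.

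**Figure D2:**
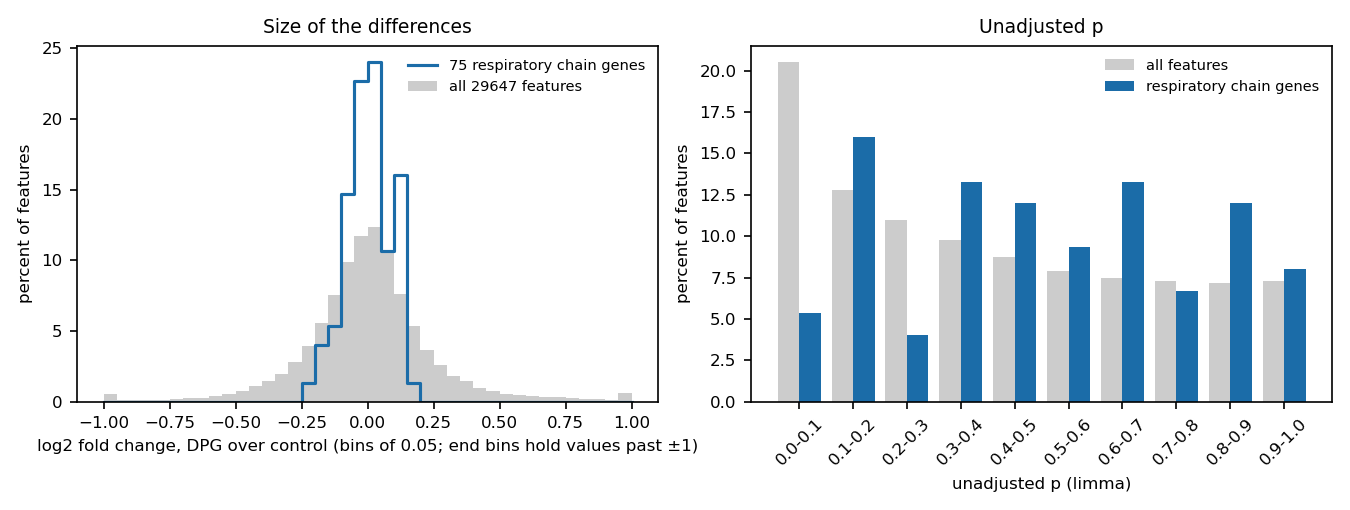
Left, share of genes by size of the log2 fold change for the 75 respiratory chain genes (line) and all 29647 features (grey). Right, share by unadjusted p from limma in steps of 0.1: the subunit genes are gathered between -0.22 and 0.15 and fill the lowest step of p less than all features do. The variance model used here had no intensity trend.

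The start regions of these genes were searched for motifs, as a description with no test of enrichment. Nuclear respiratory factor 1 (NRF1) and the ETS-family factor GABP are textbook regulators of respiratory chain genes. Promoter sequence from RefSeq (rat assembly GRCr8) matched 65 of the 75 genes, and the 250 bases before each gene start were searched on both strands. The palindrome CGCATGCG, the centre of the NRF1 motif, occurred in 7 of 65 (10.8%), against 2.06% of 19005 protein-coding promoters of the same length. Of these 7 genes, 5 belong to complex V, which has 16 of the 75 tested genes, and this split was not tested. The ETS motif CCGGAAG occurred in 19 (29.2%, against 9.52%), and most of the 65 windows held neither. A median of 16 CpG pairs lay in a member's window and 9 in all promoters, at a GC content of 55.6% and 54.8%. The YY1 motif AAGATGGC was found in 2 of 65 (3.08%, against 1.71%), CCAAT in 32.3% against 35.5%, TATAAA in 7.69% against 12.3%, and TCAAGGTCA, bound by oestrogen-related receptors, in 0 of 65 against 0.305%. A match is a description of letters and not of binding. The promoters of 4 members are given 5′ to 3′ on the gene's strand, with the NRF1 palindrome and the ETS motif, in either orientation, in capitals. Ndufb7 (chr19:41477292-41477541, minus strand) is shown as the gene with the smallest p. Uqcrc2 (chr1:184598990-184599239, plus strand) has the ETS motif at more than 1 place, reading CTTCCGG. Atp5mc2 (chr7:135678219-135678468, minus strand) and Atp5me (chr14:1464610-1464859, plus strand) both hold the palindrome, and their differences below have opposite signs.
Ndufb7: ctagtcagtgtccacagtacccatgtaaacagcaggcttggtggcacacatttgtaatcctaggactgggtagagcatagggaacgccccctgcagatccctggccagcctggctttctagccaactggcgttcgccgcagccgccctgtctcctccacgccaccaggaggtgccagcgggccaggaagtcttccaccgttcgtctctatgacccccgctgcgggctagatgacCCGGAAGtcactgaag
Uqcrc2: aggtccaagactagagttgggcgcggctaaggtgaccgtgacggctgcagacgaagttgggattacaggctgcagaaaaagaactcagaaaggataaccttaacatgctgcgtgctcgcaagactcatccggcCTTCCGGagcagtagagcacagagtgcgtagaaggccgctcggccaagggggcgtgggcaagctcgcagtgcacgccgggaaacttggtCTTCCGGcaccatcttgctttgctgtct
Atp5mc2: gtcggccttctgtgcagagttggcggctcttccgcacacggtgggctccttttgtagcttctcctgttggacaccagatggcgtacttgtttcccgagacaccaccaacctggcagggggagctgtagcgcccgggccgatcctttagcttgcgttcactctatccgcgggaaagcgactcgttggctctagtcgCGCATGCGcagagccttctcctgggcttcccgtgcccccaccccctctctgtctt
Atp5me: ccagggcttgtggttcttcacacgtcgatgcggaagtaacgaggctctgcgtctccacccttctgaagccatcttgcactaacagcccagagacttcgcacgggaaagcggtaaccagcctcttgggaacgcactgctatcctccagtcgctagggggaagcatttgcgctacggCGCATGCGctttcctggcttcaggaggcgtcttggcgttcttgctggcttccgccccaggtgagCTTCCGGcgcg

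Complex I, the NADH dehydrogenase, had 31 tested members. Differences lay above 0 for 20 and below 0 for 11, with a median of 0.040 and a range from -0.14 to 0.15. Ndufb7, an accessory subunit on the intermembrane side of the membrane arm, read 5.24, 5.25 and 5.22 in controls 1 to 3 and 5.38, 5.38 and 5.42 in DPG 1 to 3. Every DPG animal was above every control. The difference was 0.15 ± 0.058 (SE, 3 arrays a group), which is 1.11-fold with an interval of 1.01 to 1.23. Its unadjusted p from limma was 0.041, and the adjusted p was 0.391. A second probe of Ndufb7 gave 0.082 (unadjusted limma p of 0.201 with every probe fitted on its own), and normexp background correction gave 0.072 for the first. The first probe's unadjusted limma p stayed under 0.05 with median scaling, a filter on all 6 arrays, flagged spots kept, array weights and the deposited table. With an intensity trend and robust variance it was 0.00859. It was no longer under 0.05 with normexp, quantile normalization, no filter on dim probes, the replicate block or any 1 array left out. Nor was that of the mean of both probes.

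Ndufa2, a small accessory subunit of the matrix arm, read 4.0, 4.04 and 4.01 in the controls and 4.15, 4.17 and 4.12 with DPG. These groups did not overlap either. Its difference was 0.13 (95% interval -0.016 to 0.27, adjusted p = 0.447), and its second probe, fitted on its own, gave 0.16 (unadjusted limma p of 0.0318). Ndufa10l1, which is close in sequence to the accessory subunit gene Ndufa10, had 5 probes, all between 0.097 and 0.14. Its arrays read 5.89, 6.05 and 5.86 against 6.10, 6.08 and 6.03, so that DPG 3 fell below control 2. With normexp its difference was 0.17 (unadjusted limma p of 0.0472). Probes of such near copies may share transcripts, and the values of Ndufa10l1 and Ndufa10 are uncertain in that respect.

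On the lower side, Ndufa1, an accessory subunit needed to build the membrane arm, read 6.80, 6.81 and 6.84 in the controls and 6.67, 6.73 and 6.68 with DPG. The groups did not overlap, and the difference was -0.12 (interval -0.27 to 0.024, adjusted p = 0.469), but it was 0.038 with normexp. With an intensity trend and robust variance, the unadjusted limma p of Ndufa1 was 0.0204. Ndufa5, an accessory subunit of the matrix arm, differed by -0.14 (interval -0.31 to 0.038), or -0.19 with normexp. Its DPG animals (6.88, 6.90 and 6.80) were all below the controls (7.07, 7.0 and 6.92). Ndufv2, a core subunit of the NADH-binding module that carries an iron-sulfur cluster, read 6.52, 6.35 and 6.42 against 6.33, 6.31 and 6.27. It too did not overlap, with a difference of -0.13 (interval -0.30 to 0.048, adjusted p = 0.526). Opposite signs thus occurred among subunits of 1 complex, each of about 1.1-fold.

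The 7 core subunits of complex I measured here, those that bind NADH or carry the electrons, had a median difference of -0.020, with 3 above 0 and 4 below. The 24 accessory subunits had a median of 0.047, with 17 above 0 and 7 below. Genes of a complex are not replicates, and this difference was not tested. Ndufa4, counted here by its name although the protein is now placed with complex IV, read 6.82, 6.94 and 6.81 in the controls and 6.98, 7.12 and 6.83 with DPG, with a difference of 0.12 (interval -0.12 to 0.35). Its groups overlapped.

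Probes of 1 gene did not always give the same answer. Of 39 genes with several kept probes, 17 had differences of both signs, most of them small. Larger gaps were seen for 4 genes, picked out after their values were seen. Ndufc2, an accessory subunit of the membrane arm, gave 0.066 with its brighter probe and -0.36 with the other (unadjusted p = 0.0109, limma over all probes). The widest gaps were those of Cox6c-ps1 (-0.034 and 0.79), Cox6a2 and Cox6b2, described with complex IV below, and Ndufc2. The 0.79 of Cox6c-ps1 came from a dim probe with a standard error of 0.89. That probe was well above background on 2 control and all 3 DPG arrays, so it was kept through the DPG group alone. Cox6c-ps1 is a transcribed pseudogene of Cox6c. Which transcript form each Ndufc2 probe reads was not examined.

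All 4 subunits of complex II, succinate dehydrogenase, were measured. Sdha, the flavoprotein that oxidises succinate, read 7.05, 7.03 and 6.97 in the controls and 7.06, 7.03 and 6.93 with DPG, a difference of -0.0088 (interval -0.17 to 0.16). Sdhb, the iron-sulfur subunit of the same catalytic head, differed by 0.018 (interval -0.15 to 0.19). For both, the groups overlapped throughout. The membrane anchors had opposite signs. Sdhc read 5.46, 5.36 and 5.40 against 5.26, 5.42 and 5.32, a difference of -0.074 (interval -0.25 to 0.10) that was 0.0011 with normexp. Sdhd read 6.19, 6.25 and 6.19 against 6.28, 6.42 and 6.27, with no overlap and a difference of 0.11 (interval -0.062 to 0.29, adjusted p = 0.569). The Sdhd difference was 0.13 with normexp.

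Complex III, which hands electrons from coenzyme Q to cytochrome c, had 8 members, with differences between -0.065 and 0.061 and a median of 0.0076. Its Rieske iron-sulfur protein, Uqcrfs1, read 6.07, 5.97 and 5.99 in the controls and 5.93, 5.95 and 5.96 with DPG. The DPG animals were just below the controls, and the difference was -0.065 (interval -0.22 to 0.088), or 0.020 with normexp. Uqcrc1, a core protein of the matrix side, differed by -0.030 (interval -0.20 to 0.14), and Uqcrc2, whose promoter is printed above, by 0.0069 (interval -0.19 to 0.20). Of the small subunits, Uqcr11 differed by 0.048 (interval -0.10 to 0.20) but by -0.11 with normexp. Uqcr10 gave 0.061 (interval -0.20 to 0.32) and -0.0022 after quantile normalization. Uqcrh, the hinge protein at the cytochrome c1 site, gave 0.014 (interval -0.14 to 0.17). Uqcrb, which helps hold the coenzyme Q site, gave -0.016 (interval -0.17 to 0.14), and 0.063 with normexp.

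Complex IV, cytochrome c oxidase, had 16 tested members, 6 above 0 and 10 below, with a median of -0.029 that was 0.0059 with normexp. Of its ubiquitous subunits, Cox6c read 7.46, 7.49 and 7.47 in the controls and 7.58, 7.69 and 7.58 with DPG. The groups did not overlap, and the difference was 0.14 (interval -0.016 to 0.30, adjusted p = 0.444). A second Cox6c probe gave -0.0024. Cox8a (8.31, 8.29 and 8.31 against 8.35, 8.36 and 8.32) also did not overlap, at a difference of 0.043 (interval -0.099 to 0.18). Cox6b1, which faces the cytochrome c side, likewise did not overlap, at 0.036 (interval -0.11 to 0.18). All 3 DPG values can thus lie above all 3 control values at a difference of 1.03-fold.

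Cox7c, a small subunit read through 1 probe, had the lowest difference of all members. It read 3.25, 2.98 and 2.81 in the controls and 2.73, 2.73 and 2.91 with DPG, so that DPG 3 lay above control 3. The difference was -0.22 (interval -0.54 to 0.093, adjusted p = 0.531), and it ran from -0.33 without control 3 (unadjusted p = 0.0454) to -0.11 without control 1. With normexp it was -0.31 (unadjusted limma p of 0.0469). Cox5b, which binds zinc on the matrix side, differed by -0.055 (interval -0.21 to 0.10), or 0.027 with normexp. Other widely expressed forms gave a difference of -0.023 for Cox4i1, 0.088 for Cox6a1, -0.0038 for Cox7a2 and -0.069 for Cox7b, each with an interval inside 1.5-fold. Cox7a2l, a factor that helps join complexes III and IV into supercomplexes, gave 0.034 (interval -0.24 to 0.31).

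Several subunits of complex IV have second forms that are made mainly in certain tissues. Cox4i2 is known from lung and from oxygen-sensing cells, Cox6a2 and Cox8b from heart and skeletal muscle, and Cox6b2 from testis. All 4 had a difference below 0 with their brightest probe, with a median of -0.13, while the 10 ubiquitous subunits had 5 above 0, 5 below and a median of 0.016. The groups overlapped for all 4, the spread was large, and the mean over a gene's probes gave values above 0 for Cox6a2 (0.036) and Cox6b2 (0.16). Cox6a2 read -0.23, -1.25 and -1.36 in the controls and -1.50, -1.39 and -0.31 with DPG, so that 1 animal of each group stood about 1 log2 unit above the others. Its difference was -0.11 (interval -1.17 to 0.94), and another of its probes gave 0.45 (unadjusted limma p of 0.0268 over all probes). Cox8b read -1.51, 0.12 and -0.48 against -0.71, -0.90 and -0.84, a difference of -0.19 (interval -1.16 to 0.78). The controls alone spanned the DPG values. Without control 1 the Cox8b difference was -0.63 (unadjusted p = 0.0242), and without control 2 it was 0.18.

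Cox6b2 gave -0.15 (interval -0.39 to 0.092) with one probe and 0.48 with another, whose standard error was 0.71. Cox4i2 gave -0.069 (interval -0.34 to 0.20). Of 8 listed skeletal muscle markers, 4 were tested and 3 of those were above background on all 6 arrays, with a summed signal of 0.594 to 0.648 in controls and 0.595 to 0.674 with DPG, as a multiple of the array's 75th percentile. Their differences were -0.53 for Acta1, 0.89 for Ckm, 0.099 for Tnnt3 and -0.018 for Mb, with a median of 0.040, and Acta1 alone had an unadjusted p under 0.05 (0.0025). Ckm was well above background on 2 control and all 3 DPG arrays, so it was kept through the DPG group alone. Its interval ran from -0.77 to 2.55. The part of these muscle markers in the values of Cox6a2 and Cox8b was not tested.

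**Figure D3:**
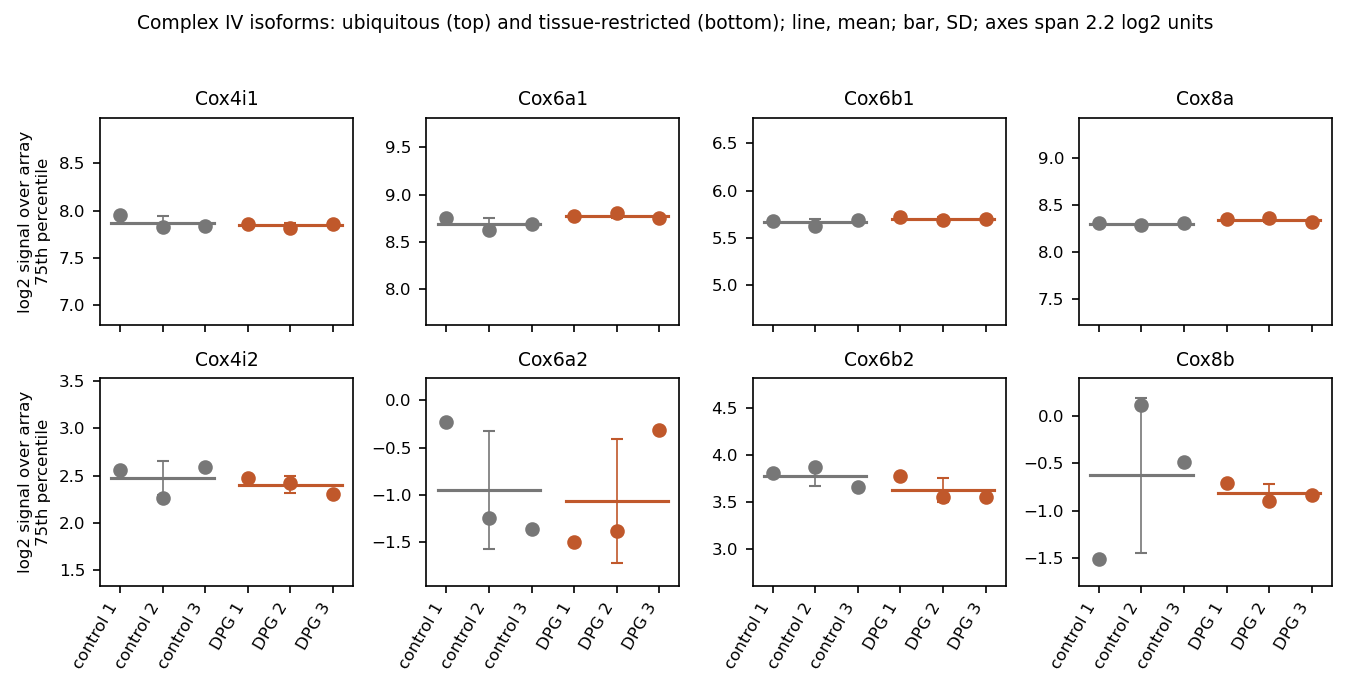
Log2 signal on each array for 4 ubiquitous complex IV subunits (top) and their tissue-restricted counterparts (bottom), every panel spanning 2.2 log2 units; lines are group means and bars SD over 3 animals. Cox4i1, Cox6a1, Cox6b1 and Cox8a form tight groups, while Cox6a2 and Cox8b spread over more than 1 log2 unit within a group.

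Complex V, the ATP synthase, had 16 members, 6 above 0 and 10 below, with a median of -0.022 and a range from -0.15 to 0.12. Within its catalytic head, Atp5f1b, the beta subunit that holds the catalytic sites, read 6.24, 6.03 and 6.08 in the controls and 5.91, 6.05 and 5.93 with DPG. DPG 2 lay inside the control range, and the difference was -0.15 (interval -0.36 to 0.058, adjusted p = 0.526). Atp5f1d, the delta subunit of the central stalk, read 5.56, 5.53 and 5.52 against 5.60 in each DPG animal. It did not overlap, at a difference of 0.065 (interval -0.075 to 0.21), or 0.13 with normexp. Atp5f1a, the alpha subunit that alternates with beta in the head, gave 0.12 (interval -0.17 to 0.41).

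The ring of c subunits, which turns as protons pass, is encoded by several genes with the same mature protein. Atp5mc2 read 7.26, 7.24 and 7.32 in the controls and 7.38, 7.40 and 7.39 with DPG, a difference of 0.11 (interval -0.034 to 0.26, adjusted p = 0.501) without overlap. Its other probes gave values down to 0.0052. Atp5mc1 gave -0.028 (interval -0.19 to 0.14), with groups that overlapped. Atp5me, a small membrane subunit whose promoter also holds the NRF1 palindrome, differed by -0.074 (interval -0.25 to 0.097).

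Among the remaining parts, Atp5mk, a small membrane subunit, read 6.68, 6.69 and 6.61 against 6.76, 6.83 and 6.75, without overlap. Its difference was 0.12 (interval -0.036 to 0.28, adjusted p = 0.50), and a second probe gave -0.044. Atp5pb, the b subunit of the peripheral stalk that holds the head still, differed by -0.083 (interval -0.28 to 0.11). Atp5if1, the inhibitor that stops the enzyme from running backwards, read 6.17, 6.08 and 5.96 against 5.95, 6.06 and 5.96. Its difference was -0.077 (interval -0.28 to 0.12), or 0.013 with normexp.

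Across the arrays, the complexes did not separate by treatment. For all 75 genes, the median deviation from a gene's control mean was 0.020, -0.0065 and -0.0086 in controls 1 to 3 and 0.014, 0.030 and -0.023 in DPG 1 to 3. DPG 2 was the highest and DPG 3 the lowest, with the controls between them. For complex I these medians were 0.011, 0.014 and -0.015 in the controls and 0.014, 0.060 and -0.0018 with DPG, and for complex V they were 0.018, -0.015 and 0.0077 against 0.012, 0.046 and -0.067. In complexes I, II, III and V the deviation of DPG 3 was the lowest of the DPG animals. The median over all members, 0.0082, was -0.0022 after quantile normalization, and that of complex III, 0.0076, was -0.0061.

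**Figure D4:**
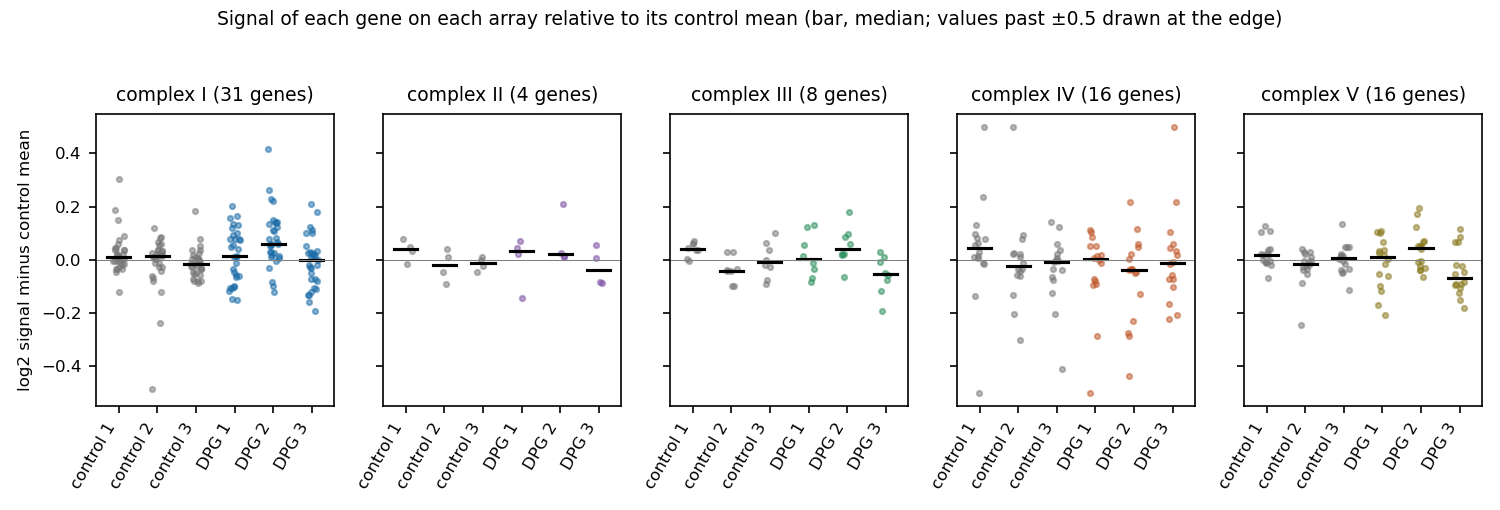
Deviation of each gene's log2 signal from its control mean on each array, by complex (points are genes, bars medians). The bars lie within 0.07 of 0 on every array. The ranges of the control and DPG bars overlap in each of the 5 complexes.

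Genes that build, feed or regulate the chain gave a similar picture. Over 210 tested genes of the other mitochondrial lists, 106 lay above 0 and 104 below, with a median of 0.0009. With limma, 0 passed the adjusted threshold, while 2 were higher and 6 lower at an unadjusted p under 0.05, beside the 6.68% and 5.7% of all features given above. Of 15 complex I assembly genes, 2 of complex II, 8 of complex III and 5 of complex V, 0 were called at that level. Of 18 complex IV assembly genes, 1 was higher and 2 lower. Coa7 read 0.17, 0.20 and 0.075 in the controls and -0.21, -0.13 and 0.008 with DPG, a difference of -0.26 (interval -0.46 to -0.054, adjusted p = 0.340). Coa4, a twin-cysteine protein of the intermembrane space, differed by -0.20 (interval -0.38 to -0.028, adjusted p = 0.360). Both were lower in each DPG animal than in any control. Cox19, a copper-handling assembly factor, went the other way without overlap, at 0.25 (interval 0.035 to 0.47, adjusted p = 0.360).

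Of 20 genes for mobile carriers and coenzyme Q, 1 was called: Coq8b, a kinase-like protein of coenzyme Q synthesis, at 0.18 (interval 0.027 to 0.33, adjusted p = 0.357). Its relative Coq8a gave -0.13 (interval -0.28 to 0.022). In the tricarboxylic acid cycle, which supplies NADH and succinate, 1 of 18 genes was called. Suclg1, the alpha subunit of succinyl-CoA synthetase, read 7.35, 7.35 and 7.34 in the controls and 7.13, 7.2 and 7.16 with DPG. The groups did not overlap, at a difference of -0.18 (interval -0.33 to -0.039, adjusted p = 0.340). Of 17 carriers and channels, the outer membrane channel Vdac2 was called, at -0.18 (interval -0.34 to -0.021). Its relatives Vdac1 (0.17, interval -0.028 to 0.36) and Vdac3 (0.056, interval -0.091 to 0.20) went the other way without overlap and were not called.

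Of 19 regulators of mitochondrial biogenesis, 0 were called, and their median was -0.0006. Ppargc1a, the coactivator PGC-1 alpha, read -0.67, -0.78 and -0.44 against -0.93, -0.91 and -0.74, and control 2 lay below DPG 3. Its difference was -0.23 (interval -0.50 to 0.040, adjusted p = 0.462). Gabpb1, a subunit of the ETS-family factor GABP, gave 0.25 (interval -0.052 to 0.55). Of 67 mitochondrial ribosomal protein genes 1 was called, Mrpl15 at -0.26, and of 20 import genes 1, the channel gene Tomm40 at -0.17. Ndufab1, the acyl carrier protein that also belongs to complex I but is spelled outside the naming rule, gave -0.029 (interval -0.18 to 0.12).

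Markers of the nephron were measured beside these genes, since segments differ in their mitochondria. All 10 markers of the convoluted proximal tubule and all 6 podocyte markers were above background on every array. Whole kidney would hold these cells too, so the markers cannot settle the label renal cortex. Of 10 markers of the convoluted proximal tubule, 9 were below 0 and 5 were lower at an unadjusted p under 0.05, with a median of -0.26. Their summed signal was 1115 to 1252 in controls and 1033 to 1107 with DPG. Of 8 markers of the straight proximal tubule, 6 were above 0 and 5 higher at that level, with a median of 0.36 and summed signals of 578 to 714 against 847 to 908. All 7 markers of the thick ascending limb were above 0 and 5 higher, with a median of 0.28 and sums of 713 to 771 against 834 to 913. The 4 intercalated cell markers had a median of -0.28 with 3 lower (sums 103 to 126 against 87.9 to 99.8), and the 6 podocyte markers a median of -0.21 with 3 lower (sums 31.4 to 39.7 against 29.2 to 36.0). The 3 tested markers of the distal convoluted tubule had a median of -0.34 with 1 lower. For the 5 markers of collecting duct principal cells the median was 0.043, with 0 called. Over all features, 6.68% were higher and 5.7% lower at an unadjusted limma p under 0.05. None of the markers passed the adjusted threshold. In whole cortex, fewer cells of a type and less RNA per cell cannot be told apart, and the part of these shifts in the values of the subunit genes was not tested.

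**Figure D5:**
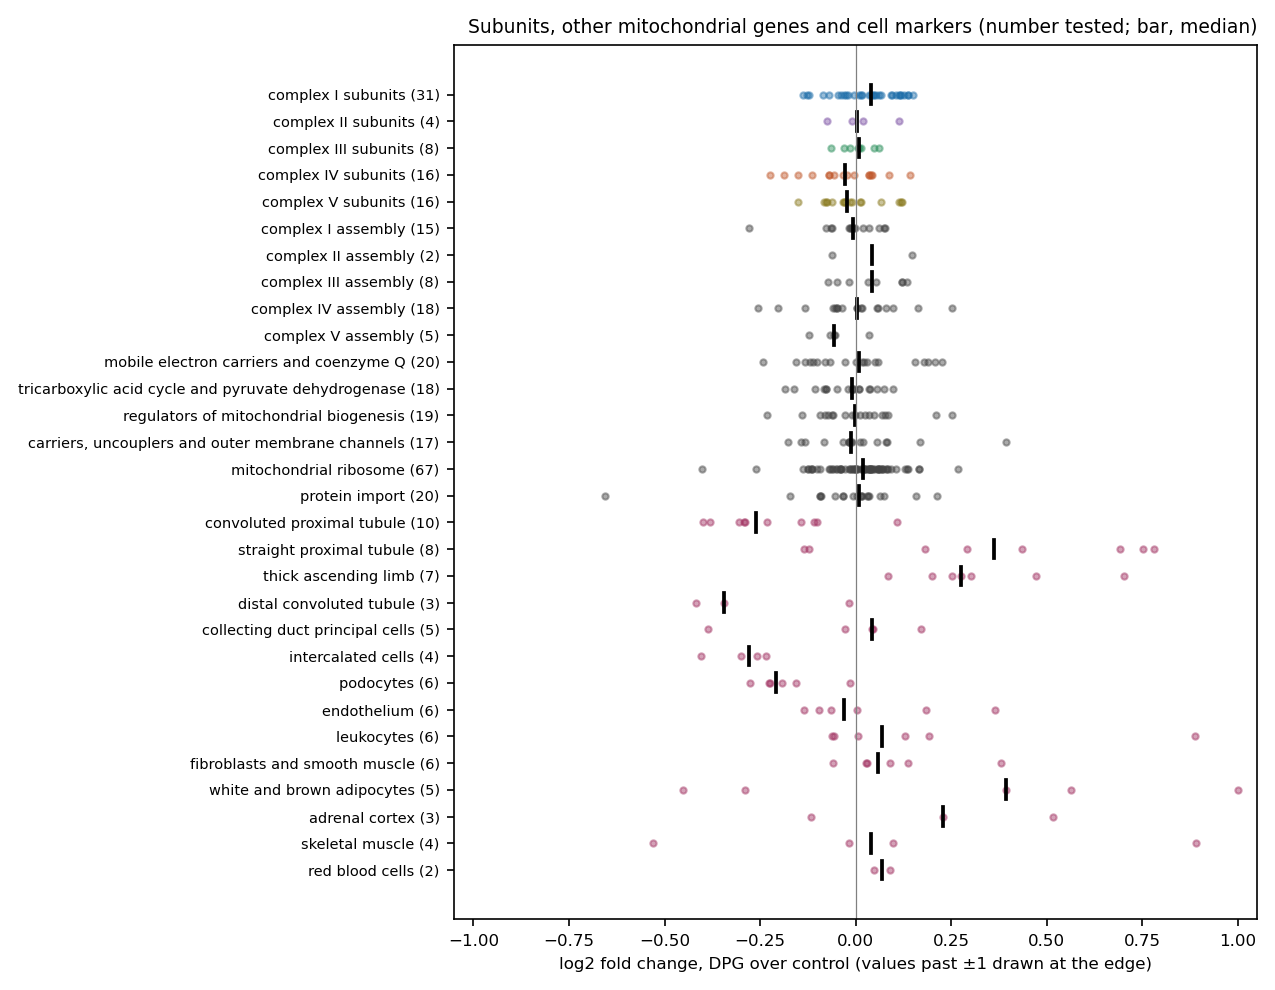
Log2 fold change of each tested gene, DPG over control, for the subunits by complex (coloured), the other mitochondrial lists (grey) and cell type markers (red), with the number tested and a bar at the median. Subunits and other mitochondrial genes have medians between -0.056 and 0.044, while the medians of the nephron segment markers run from -0.34 to 0.36.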

How the data were processed

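In all, 6 one-colour Agilent arrays were used, grouped as 3 control and 3 DPG samples from the labels. The main values are the deposited processed intensity of each spot, background-subtracted and detrended with Agilent Feature Extraction 10.7.1.1, per the file headers (10.7 per the submitters' processing notes). The deposited series table holds the ratio of that signal to about the array's 75th percentile, as a comparison with the scanner values showed; it served as an alternative.

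Control spots were dropped, 0 spots were saturated, and signals were put on a log2 scale with the 75th percentile of their array at 0. A probe stayed in when either group had it well above background in all 3 animals (40406, or 40383 without outlier flags). Accessions named 28206 of 61537 probes through RefSeq (GRCr8). The brightest kept probe stood for a gene. The comparison used lmFit and eBayes of limma 3.58.1 (R 4.3.3), two-sided, with Benjamini-Hochberg adjustment over 29647 features. With 4 residual and 1.95 prior degrees of freedom, a 95% interval reached 2.45 SE to each side. The fit was run on simulated data with the spread of these data and added changes of 1.5-fold or more. That run does not bear on calls at differences near 1.1-fold or on the slides. An exact permutation test of 3 against 3 animals cannot give a p below 0.1.

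Named members were up to 3 per direction by smallest p in complexes I, III, IV and V, all Sdh genes, the complex IV isoforms, Ndufa4, Atp5if1 and the c subunits, plus up to 2 genes of each other list. Atp5f1a, Ndufc2, Cox6c-ps1, Uqcrc2, Cox19 and the skeletal muscle genes were picked once their values were known. The members and lists were chosen with earlier results of these data known. Alternatives covered background correction, scaling, filters, probe choice, variance model, array weights, replicate block, the deposited table and leaving out each array. Slide could not be fitted as a block. Of the tested genes, 1 is counted but not reported here by name.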

Additional observations from a re-analysis of the deposited data

How the results depend on the processing

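Under all alternatives run, 0 of the 75 genes passed the adjusted threshold of limma, and the share of members with an unadjusted p under 0.05 was below that of all features in each. The count of 1 higher and 0 lower became 5 and 3 with normexp (10.7% of members, against 15.2% of all features), 5 and 2 with an intensity trend and robust variance (9.33% against 12.9%), and 0 higher with quantile normalization, with no filter and with the replicate block. Counted by probe, over 130 probes, it was 3 higher and 1 lower, with 21 higher and 7 lower without overlap, 84 intervals inside 1.2-fold and 71 differences above 0. Median scaling left 2 genes lower without overlap. With an array left out, 0 to 1 genes were higher and 0 to 1 lower at an unadjusted p under 0.05, and Ndufb7 was not among them. Cox8b was called without control 1 at -0.63, Ndufa10l1 without control 2 at 0.20 and Cox7c without control 3 at -0.33, against -0.11 without control 1. Non-overlapping genes numbered 11 to 23 higher and 5 to 14 lower. Higher, they were 18 without control 2 (24% of members, against 16.2% of all features) and 23 without DPG 3 (30.7% against 17.6%). Lower, they were 14 without DPG 2 (18.7% against 12.8%), 11 without control 2 (14.7% against 14.6%), 11 without control 3 (14.7% against 15.8%) and 7 without DPG 1 (9.33% against 12.7%). Fewer arrays overlap less often, which raises the share of all features too. Intervals inside 1.2-fold numbered 34 to 38, and differences above 0 numbered 34 to 44; both counts were added after seeing the data. The complex IV median of -0.029 was 0.0059 with normexp, 0.033 with the mean of a gene's probes and 0.0066 by probe. Among single genes, normexp turned the sign of Ndufa1 (0.038), Uqcr11 (-0.11), Uqcrfs1 (0.020), Uqcrb (0.063), Cox5b (0.027), Sdhc (0.0011), Cox4i1 (0.031), Cox7b (0.0056) and Atp5if1 (0.013). Median scaling turned Sdha (0.0060) and Cox7a2 (0.011), array weights Cox7a2 (0.0027) and quantile normalization Uqcr10 (-0.0022). The mean of a gene's probes turned Cox6b2 (0.16), Sdhb (-0.017), Cox4i1 (0.020), Cox6a2 (0.036) and Cox7a2 (0.029). The cause was not tested for any of these. With an array left out, signs turned for Uqcrh (-0.0077 to 0.049), Uqcrb (-0.034 to 0.0041), Sdha (-0.035 to 0.030), Sdhb (-0.027 to 0.058), Cox4i1 (-0.045 to 0.017), Cox6a2 (-0.49 to 0.24), Cox7a2 (-0.028 to 0.030), Cox7a2l (-0.056 to 0.12), Cox8b (-0.63 to 0.18) and Atp5mc1 (-0.062 to 0.0033).

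Same-numbered animals did not deviate together (correlations of -0.023, -0.087 and -0.069). Whether the samples were paired in handling cannot be told from these values. With the replicate block, 0 members had an unadjusted p under 0.05, beside 10.1% of all features, and 30 intervals lay inside 1.2-fold, against 46 without it. The 3 arrays a group limit the precision, and the 3 members with intervals wider than 1.5-fold carry little information on size. Slide and scan cannot be told apart from treatment.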
